A study of Mus musculus with 10 samples.

Results

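Open chromatin of Flt3-ITD haematopoietic stem and progenitor cells (HSPCs) was compared with that of wild-type (WT) HSPCs, with 2 ATAC-seq libraries of each genotype. In ATAC-seq the Tn5 transposase inserts sequencing adapters where DNA is accessible, and each library is represented by a list of called peaks. Peaks of these 4 lists on chromosomes 1 to 19 and X were merged wherever they shared at least 1 base, which gave 84639 regions. A region counted as called wherever a library had a peak in it. Regions called in both Flt3-ITD libraries and in neither WT library were counted as gained, and there were 907 of them (1.07% of all regions). Regions called in both WT libraries and in neither Flt3-ITD library were counted as lost, and there were 17395 (20.6%).

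The Flt3-ITD mice were Flt3ITD/+, heterozygous for an internal tandem duplication of Flt3, and the WT mice carried neither mutant allele. Both were C57BL/6. The cells were the lineage-negative fraction of marrow flushed from femurs and tibias, enriched with a depletion kit after red cell lysis, and 100000 cells entered each tagmentation of 30 min. Another 4 of the 10 samples of the series served below as libraries that had no part in choosing the regions. They are the double mutant (DM), Npm1flox-cA/+;Flt3ITD/+;Mx1-Cre+, and Npm1c, Npm1flox-cA/+;Mx1-Cre+, with 2 libraries each. Npm1c is the cytoplasmic mutant of nucleophosmin, recombined by a Cre under an interferon-inducible promoter, so DM and Npm1c both carry Npm1c and Cre and differ in the Flt3 allele. No Cre is named for the Flt3-ITD and WT mice. The sources used here give neither mouse ages nor the number of mice per library. The WT neutrophil samples were not analysed here. The labels number the replicates without naming animals, so every p-value below measures only the spread between these samples.

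FLT3 is a receptor tyrosine kinase of early progenitors that signals through PI3K, RAS-MAPK and STAT proteins once it binds FLT3 ligand. The tandem duplication, a recurrent lesion of acute myeloid leukaemia, lies in the juxtamembrane segment, makes the kinase active without ligand and adds STAT5 signalling. ATAC peaks lie mostly at promoters and enhancers, and enhancers tend to be the more particular to a cell type. A peak that is absent may thus reflect closed chromatin in the same cells or fewer cells of a type in the fraction, and in bulk lists these cannot be told apart.

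Promoters inside changed regions are shown first, since only 20 of the 907 gained regions held a start site. RefSeq windows of 250 bases before to 50 bases after the start (GRCm38.p6, the matching assembly) were available for 17274 of the 21633 genes used. Gp6 (glycoprotein VI, the platelet collagen receptor), Ppbp (a chemokine of platelet granules) and Alox12 (the platelet 12-lipoxygenase) are shown as platelet genes among the 5 with a start site in a gained region absent from every other genotype. The others were Dcaf4 and Exoc3l2. C1qb (a chain of complement C1q made by macrophages) is shown as a gained start site that was also open in DM. Erg (an ETS transcription factor of stem cells) and Tek (the TIE2 angiopoietin receptor) are list genes with a lost start site, and the Erg window is 1 of 3 start sites of that gene in the table. The windows are Gp6 chr7:4397695-4397994 (minus strand), Ppbp chr5:90768268-90768567 (plus), Alox12 chr11:70255321-70255620 (minus), C1qb chr4:136886151-136886450 (minus), Erg chr16:95459299-95459598 (minus) and Tek chr4:94739039-94739338 (plus). Each is written 5′ to 3′ along the gene, with the start at base 251, and capitals mark a motif match on either strand.
Gp6: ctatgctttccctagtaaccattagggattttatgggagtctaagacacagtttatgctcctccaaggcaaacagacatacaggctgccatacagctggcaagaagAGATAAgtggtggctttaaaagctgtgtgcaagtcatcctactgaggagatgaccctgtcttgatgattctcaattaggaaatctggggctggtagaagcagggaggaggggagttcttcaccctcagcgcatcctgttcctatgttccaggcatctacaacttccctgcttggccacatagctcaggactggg
Ppbp: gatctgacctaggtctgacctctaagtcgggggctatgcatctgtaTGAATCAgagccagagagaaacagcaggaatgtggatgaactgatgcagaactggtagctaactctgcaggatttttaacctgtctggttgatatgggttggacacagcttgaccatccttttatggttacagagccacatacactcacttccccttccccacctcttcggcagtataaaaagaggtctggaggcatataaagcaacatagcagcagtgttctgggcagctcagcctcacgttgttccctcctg
Alox12: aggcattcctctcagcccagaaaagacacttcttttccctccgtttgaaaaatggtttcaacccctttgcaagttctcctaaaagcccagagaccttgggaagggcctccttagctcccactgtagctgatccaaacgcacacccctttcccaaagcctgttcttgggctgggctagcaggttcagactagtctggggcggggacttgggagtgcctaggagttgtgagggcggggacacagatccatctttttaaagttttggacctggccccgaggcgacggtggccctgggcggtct
C1qb: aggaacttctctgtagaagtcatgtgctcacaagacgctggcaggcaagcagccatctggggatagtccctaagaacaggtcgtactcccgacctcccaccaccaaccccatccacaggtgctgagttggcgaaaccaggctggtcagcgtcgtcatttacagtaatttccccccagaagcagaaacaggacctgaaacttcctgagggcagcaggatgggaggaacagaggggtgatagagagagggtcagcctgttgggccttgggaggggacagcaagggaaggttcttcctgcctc
Erg: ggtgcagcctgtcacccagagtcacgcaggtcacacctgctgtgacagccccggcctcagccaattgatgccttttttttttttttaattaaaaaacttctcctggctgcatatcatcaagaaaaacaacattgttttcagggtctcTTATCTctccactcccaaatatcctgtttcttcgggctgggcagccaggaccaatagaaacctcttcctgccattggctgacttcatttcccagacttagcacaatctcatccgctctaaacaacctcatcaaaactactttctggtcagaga
Tek: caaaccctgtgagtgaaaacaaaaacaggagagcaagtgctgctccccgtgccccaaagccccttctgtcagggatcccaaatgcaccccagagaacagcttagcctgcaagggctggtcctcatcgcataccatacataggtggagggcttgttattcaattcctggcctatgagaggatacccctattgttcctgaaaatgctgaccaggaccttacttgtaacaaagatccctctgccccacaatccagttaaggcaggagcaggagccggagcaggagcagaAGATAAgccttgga
Of 7 motifs searched, the motif of GATA factors, AGATAA, was in the Gp6, Erg and Tek windows at bases 107, 148 and 287. The AP-1 motif TGANTCA was in the Ppbp window at base 47. The Alox12 and C1qb windows held none of the 7. AGATAA occurred in 11.2% of all 32619 windows and TGANTCA in 7.85%. TTCNNNGAA, the STAT motif, was in 2 of the 22 windows with a start in a gained region (9.09%), in 52 of 507 with a start in a lost region (10.3%) and in 8.34% of all windows. The other motifs were GAAANNGAA (IRF), GAGGAAGT (PU.1), TGTGGTT (RUNX) and TTGCNNAA (C/EBP), some of which can overlap each other. The median number of CpG per window was 8 for gained and 10 for lost regions, against 22 for regions called in all 4 libraries and 7 for all windows. These matches describe letters and not bound sites.

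The Flt3-ITD libraries had shorter peak lists, which bears on every loss below. They held 43825 and 51733 deposited peaks, against 80916 and 63908 in the WT libraries. The covered length was 24.2 and 29.8 Mb in Flt3-ITD libraries, against 50.2 and 39.8 Mb in WT libraries, a difference of -18.0 Mb (exact two-sided permutation p = 0.3333, the smallest that 2 libraries against 2 can give). The groups did not overlap in either measure. Peaks had a median width of 396 and 403 bases in Flt3-ITD and 421 and 419 in WT. Read numbers are not given in the sources used here, so fewer reads and less open chromatin cannot be told apart as sources of a short list. WT replicate 1, the longest list, alone called 14538 regions that no other of the 4 libraries called. Without it 4978 regions were gained, and without WT replicate 2 as many as 32345 were lost. Leaving out Flt3-ITD replicate 1 or 2 gave 1725 or 1443 gained regions. A rule that asks for fewer libraries is met more often, and the direction stayed the same in these 4 cases: more regions were lost than gained.

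To remove the difference in length, all 4 lists were cut to the 43794 widest peaks of each. Of 57983 merged regions, 4313 were then gained (7.44%) and 4963 lost (8.56%), which an equal number of peaks draws together by construction. Of the 907 gained regions, 530 were gained with both sets of lists (58.4% of the gained regions with full lists and 12.3% of those with equal lists, 0.626% of all regions). Of the lost regions, 3715 were lost in both (21.4% and 74.9%, 4.39% of all). The cut left out WT peaks of up to 400 bases in replicate 1 and 336 in replicate 2, so many regions gained only with equal lists had a narrower WT peak in the full list.

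**Figure D1:**
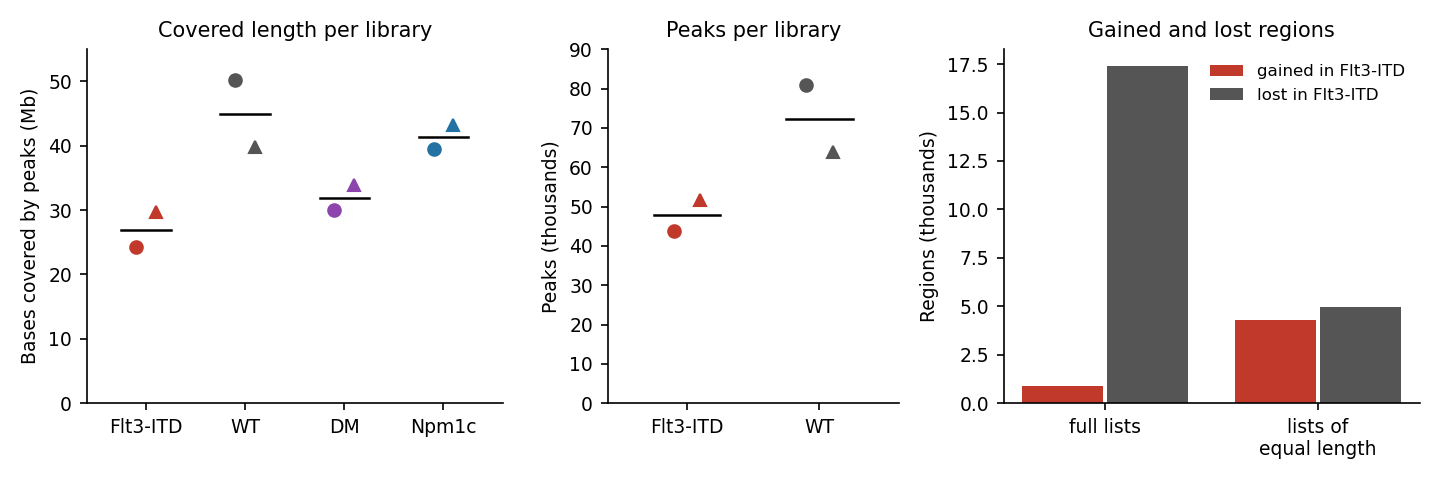
Left, megabases covered by peaks in each library (circle, replicate 1; triangle, replicate 2; bar, mean). Middle, peaks used per library on chromosomes 1 to 19 and X. Right, regions gained (red) and lost (grey) in Flt3-ITD against WT with full lists, 907 and 17395, and with lists of equal length, 4313 and 4963. Both Flt3-ITD libraries lie below both WT libraries in covered length and peak number.

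The DM and Npm1c libraries, which the rule did not use, split along the Flt3 allele at these regions. Of the 907 gained regions, 71.8% and 73.8% were called in the DM libraries, against 3.75% and 4.30% in the Npm1c libraries, a difference of 68.7 percentage points. Lost regions showed the opposite split, with 12.01% and 15.6% called in DM and 69.5% and 75.5% in Npm1c (-58.7 points). Over all 84639 regions the shares were 54.2% and 56.5% in DM against 67.1% and 71.9% in Npm1c (-14.1 points), and the DM lists also covered less, 30.0 and 33.9 Mb in DM against 39.6 and 43.2 Mb in Npm1c. In number of peaks these groups overlapped, with 55624 and 63133 deposited peaks in DM and 62782 and 68676 in Npm1c. With 2 libraries against 2, each exact two-sided permutation p is 0.3333, the smallest possible. In the gained regions the DM share was the higher and in all regions the lower. With all 8 lists cut to 43794 peaks, the gained regions of that comparison were called in 85.6% and 85.5% in DM and in 11.4% and 10.3% in Npm1c, and the lost ones in 8.18% and 7.31% in DM and in 74.0% and 76.3% in Npm1c.

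Counted per region, 605 of the 907 gained regions (66.7%) were called in both DM and neither Npm1c library, and 9190 of the 17395 lost regions (52.8%) in both Npm1c and neither DM library. Over all regions these patterns held for 9.31% and 22.1%. Without regard to the Npm1c calls, 641 of the 907 gained regions were called in both DM libraries, and 14239 lost regions (81.9%) in neither DM library. A smaller class of 216 gained regions (23.8%) was called in none of these 4 libraries, so it was seen with Flt3-ITD alone. Called in none of them were also 13.4% of all regions and 18.0% of lost regions. That class held 5 gained start sites, of Gp6, Ppbp, Alox12, Dcaf4 and Exoc3l2. Only 5 gained regions were called in both Npm1c and neither DM library, and 18 in all 4.

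**Figure D2:**
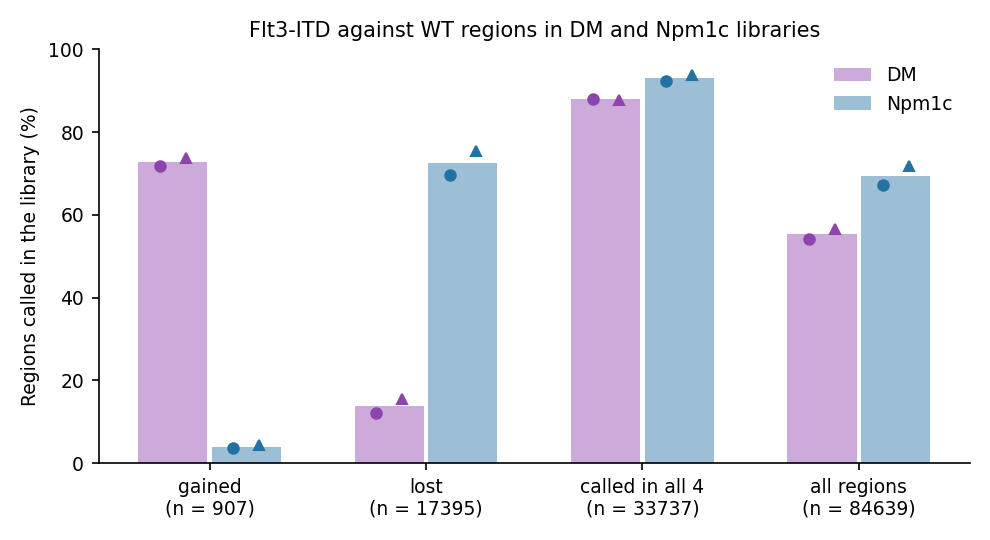
Percent of regions called in each DM and Npm1c library, for regions gained, lost or called in all 4 libraries in Flt3-ITD against WT, and for all regions. Bars are means of 2 libraries, circles replicate 1 and triangles replicate 2. Gained regions stand near 73% in DM and near 4% in Npm1c, and lost regions the other way round.

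Start sites were rarer in gained and lost regions than in regions called in all 4 libraries (constant regions). The constant regions were also wider, and regions of the remaining call patterns were not looked at on their own. What this difference owes to genotype was not tested. A start site lay in 2.21% of gained and 2.64% of lost regions, against 28.3% of the 33737 regions called in all 4 libraries and 12.9% of all regions. Of the 10928 regions with a start site, 20 were gained (0.183%) and 459 lost (4.2%), against 1.07% and 20.6% of all regions. Gained regions had a median width of 305 bases and lost ones 373, against 799 for those called in all 4. The midpoint lay inside a gene body for 58.3% of gained, 58.8% of lost and 64.7% of constant regions. The RefSeq gene table gives no exons, so neither exon, intron nor UTR is stated for a region.

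The 20 gained start sites belonged to 20 genes, and 15 were gained with equal lists too. Alox12 had the widest of these regions (chr11:70254947-70255598), with 495 and 652 bases covered in Flt3-ITD and none in WT, DM or Npm1c libraries. At Ppbp (chr5:90768274-90768689) 416 and 274 bases were covered in Flt3-ITD, and at Gp6 (chr7:4397651-4398016) 327 and 336 bases, again with none in the other 6 libraries. These platelet genes contrast with C1qb (chr4:136886040-136886445), where 301 and 379 bases were covered in Flt3-ITD, none in WT, 406 and 406 in DM and none in Npm1c. Glp1r, the receptor of the gut hormone GLP-1, resembled C1qb, with 342 and 371 bases in Flt3-ITD, none in WT, 360 and 371 in DM and none in Npm1c. The 459 lost start-site regions belonged to 476 genes, 176 of which were also lost with equal lists. The widest was at Rabggtb, a prenyltransferase subunit, with none covered in Flt3-ITD, 1575 and 1159 bases in WT, none in DM and 1521 and 1575 in Npm1c. Scin (an actin-severing protein), Ifi44l (an interferon-induced gene) and Aldh1a1 (a retinaldehyde dehydrogenase used to mark stem cells) also lost start sites, each uncovered in both DM libraries and covered in both Npm1c libraries. Of the list genes, Erg, Kdr, Isg15, Tek, Nes and Col1a2 had a lost start site.

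Peak width is the graded value that the lists hold, and it was tested at the 33737 regions called in all 4 libraries, which are neither gained nor lost. For each region the bases covered were taken on the log2 scale, centred on each library's median and fitted with limma. At a Benjamini-Hochberg adjusted p under 0.05, 864 regions were wider (2.56%) and 1005 narrower (2.98%) in Flt3-ITD. Centring matters here: the median log2 fold change over these regions was 0.13 after centring and -0.36 before it, a shift of 0.50, and without centring 1 region was wider and 2497 were narrower. A wider region is thus wider relative to the other peaks of the same library. Of the 864, 549 (63.5%) also had more bases covered in both Flt3-ITD than in both WT libraries without any scaling, as did 2.28% of all regions tested. All 1005 narrower regions had fewer bases in both Flt3-ITD libraries, as did 68.8% of all tested. The counts depended on single libraries: without WT replicate 2, 385 regions were wider, and without WT replicate 1, 3015. Without Flt3-ITD replicate 2, 3098 were wider and 2797 narrower, and without WT replicate 1, 1645 were narrower.

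DM and Npm1c libraries again differed in the same direction. Of the 605 wider regions called in all 8 libraries, 574 (94.9%) were wider in DM than in Npm1c on the centred scale, against 53.5% of all 26453 such regions. Of 656 narrower regions, 598 (91.2%) were narrower in DM, against 46.5%. The median DM minus Npm1c difference was 0.69 log2 units for wider, -1.01 for narrower and 0.04 for all regions. These counts were read as descriptions, since regions are not independent replicates.

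Flt3 itself had 12 regions. A region inside the gene (chr5:147351585-147351968) was gained, with 272 and 343 bases covered in Flt3-ITD and none in WT, and 384 and 384 in DM and none in Npm1c. A region with its midpoint 2197 bases outside the gene, as all such distances are measured (chr5:147402491-147402881) was lost, with none in Flt3-ITD and 391 and 260 in WT. The region at the start site (chr5:147399943-147400753) had 741 and 753 bases in Flt3-ITD and 765 and 784 in WT, with a centred log2 fold change of 0.44 ± 0.18 (SE, limma adjusted p = 0.138). None of the 7 regions of Flt3 called in all 4 libraries passed the width test, with limma adjusted p between 0.0856 and 0.919. Peak positions do not read the duplication, so they cannot check the genotypes.

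Targets of STAT5 kept most of their regions. Among 195 regions at 17 genes of that list, 4 were gained (2.05%) and 17 lost (8.72%), against 1.07% and 20.6% of all regions, and with equal lists 20 of 153 were gained (13.1% against 7.44%) and 4 lost (2.61% against 8.56%). Of 100 regions tested for width, 10 were wider and 1 narrower (10% and 1%, against 2.56% and 2.98%), and 6 of the 10 exceeded WT without scaling. Socs3, Socs1 and Socs2, which encode feedback inhibitors of JAK-STAT signalling, held 6 of the 10 wider regions. Of the 3 wider Socs3 regions, chr11:117946491-117947167 had the largest fold (centred log2 fold change 1.34 ± 0.29 SE, limma adjusted p = 0.0274). At the one of lowest adjusted p (chr11:117959766-117960428), 628 and 662 bases were covered in Flt3-ITD and 551 and 375 in WT (centred log2 fold change 1.0 ± 0.21 SE, limma adjusted p = 0.0247), with 663 and 663 in DM and 412 and 0 in Npm1c. The groups did not overlap there, but without WT replicate 2 the call was lost (0.83, limma adjusted p = 0.0565). Single wider regions lay at Mcl1 and Bcl6 (survival and germinal centre regulators), at Pim1 (a survival kinase) and at Myc, which also had a narrower one. The wider calls at the start-site regions of Pim1 and Socs1 rest on centring, since their uncentred log2 fold changes were -0.055 and -0.032. Calls at Socs1, Socs2, Mcl1, Bcl6, Myc, Pim1 and another Socs3 region were also lost with a single library left out. Gained regions lay at Ccnd1 (cyclin D1, 2 regions, 51023 and 61916 bases outside the gene), Id1 and Myc. All 4 were called in both DM libraries, as were 641 of the 907 gained regions. With genes assigned within 10 kb, 1 region of the list was gained. The Myc region (chr15:62071414-62071726), 81209 bases outside the gene, had 202 and 216 bases covered in Flt3-ITD and none in WT, and 313 and 313 in DM and none in Npm1c. Bcl2, the survival gene, lost 8 of 26 regions, the highest count in the list, and Socs1 lost 2 of 8. With single libraries left out, 23 regions of the list were gained without WT replicate 1, 8 and 7 without Flt3-ITD replicates 1 and 2, 41 were lost without WT replicate 2 and 30 without Flt3-ITD replicate 2.

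The list of FLT3 signalling components had 4 of 257 regions gained (1.56%) and 48 lost (18.7%), against 1.07% and 20.6% of all regions. With equal lists 18 of 183 were gained (9.84%) and 12 lost (6.56%), against 7.44% and 8.56%, and without WT replicate 1, 23 were gained with full lists. The gained regions lay at Shc1 (an adaptor), Flt3, Cbl (a ubiquitin ligase of the receptor) and Syk (a kinase), and those of Shc1 and Flt3 were called in both DM libraries. Sos1, the RAS exchange factor, and Gab2, a docking protein, lost 6 regions each, and Gab1 and Pik3r1 lost 5 each. Pik3cd, the PI3K subunit of blood cells, had 2 wider regions and 1 narrower one. At the first (chr4:149665015-149665809) 718 and 706 bases were covered in Flt3-ITD and 389 and 432 in WT (centred log2 fold change 1.29 ± 0.21 SE, limma adjusted p = 0.0107), and 795 and 795 in DM and 519 and 397 in Npm1c. RAS-MAPK feedback genes had no gained region among 131 and 19 lost ones (14.5%), at Spred2 (4), Spry2, Spred1 and Phlda1 (3 each) and others. With equal lists 7 of 90 of them were gained (7.78%) and 8 lost (8.89%), and without WT replicate 1, 9 were gained with full lists. AP-1 and immediate early genes had 5 gained regions of 130 (3.85%), 1 each at Fos, Fosl2, Klf6, Maff and Nr4a1, and 13 lost (10%). Those gained at Fos, Fosl2 and Klf6 lay 38780, 34429 and 23985 bases outside the gene. With equal lists the counts turned to 11 of 105 gained (10.5%) and 2 lost (1.90%), and without WT replicate 1, 21 were gained with full lists. All 5 gained regions but that of Klf6 were called in both DM libraries, as were 641 of the 907 gained regions.

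Myeloid transcription factors had gained and lost regions, with a lost share below that of all regions. Of 298 regions, 8 were gained (2.68%, against 1.07% of all regions), 4 of them at Irf8, 2 at Runx1 and 1 each at Runx3 and Cebpb. Of the 8, 7 were called in both DM libraries, as were 641 of the 907 gained regions, and none in an Npm1c library. The widest Irf8 gain (chr8:120777149-120777623), 20692 bases outside this regulator of monocyte and dendritic cell fate, had 475 and 460 bases in Flt3-ITD and none in WT, and 475 and 475 in DM and none in Npm1c. At Cebpb, a regulator of granulocyte and macrophage genes, the gained region (chr2:167686816-167687312) had 384 and 350 bases in Flt3-ITD and none in WT, and 296 and 346 in DM and none in Npm1c. Runx3, a RUNX factor, held 6 of the 12 wider regions of the list. Among them, chr4:135097904-135098836 had 840 and 874 bases in Flt3-ITD, 756 and 213 in WT, 882 and 933 in DM and none in Npm1c. Its centred log2 fold change was 1.59 ± 0.39 SE (limma adjusted p = 0.0400), with 0.79 without WT replicate 2 and 2.40 without WT replicate 1. The Runx3 calls at chr4:135054195-135054781, chr4:135061207-135061671, chr4:135079920-135080976 and chr4:135192705-135193338 were lost with a single library left out. With equal lists 20 of 216 regions were gained (9.26%) and 13 lost (6.02%), against 7.44% and 8.56% of all regions. Without WT replicate 1, 35 were gained with full lists. Losses with full lists numbered 42 (14.1%, against 20.6% of all regions), and 96 without WT replicate 2. Of the 42, 18 were at Zeb2, a repressor needed in several blood lineages. Zeb2 had 7 and 12 regions called in Flt3-ITD and 38 and 32 in WT, and 7 and 6 in DM and 34 and 35 in Npm1c. Of the factors with gained regions, Runx1 also lost 7 of 51 regions, Irf8 2 of 21 and Runx3 2 of 31. Ikzf1, the lymphoid and myeloid factor Ikaros, lost 6 of 33 regions (18.2%, against 20.6% of all regions) and had 2 narrower ones. At chr11:11732659-11734183 it had 330 and 492 bases in Flt3-ITD and 1525 and 1454 in WT (centred log2 fold change -1.39 ± 0.19 SE, limma adjusted p = 0.00520), and none in DM against 1459 and 1457 in Npm1c.

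Monocyte and macrophage genes had 5 gained regions of 99 (5.05%) and 7 lost (7.07%), against 1.07% and 20.6% of all regions. With equal lists 13 of 72 were gained (18.1%) and 1 was lost (1.39%), against 7.44% and 8.56%. Without WT replicate 1, 17 were gained with full lists, and without WT replicate 2, 30 were lost. The gained regions lay at Ly6c2 (2), Fcgr1 (an Fc receptor), F13a1 (a coagulation factor of monocytes) and Ly86. That of F13a1 was 98581 bases outside the gene, and those of Ly6c2 were 22441 and 21756 bases outside. Those of Fcgr1, F13a1 and Ly86 were called in both DM libraries, and neither Ly6c2 region in a DM library. Csf1r and Csf2ra, receptors for macrophage and granulocyte-macrophage growth factors, and Ly86 had a wider region each. At Csf1r the uncentred values overlap (1357 and 1533 bases in Flt3-ITD, 1568 and 1235 in WT). The centred log2 fold change at Ly86 was 1.17, and 0.81 without WT replicate 2. The calls at Csf1r and Ly86 were lost without that library, and the call at Csf2ra without Flt3-ITD replicate 1. The defining monocyte markers Csf1r, Ly6c2, F13a1 and Cd14 had peaks at 2 and 1 of 4 genes in Flt3-ITD and at 3 and 1 in WT, with 2.68 and 2.56 kb covered in Flt3-ITD against 5.87 and 2.09 kb in WT, counted within the gene and 1 kb around it, where Ly6c2 had none. Their part in the counts was not tested. Dendritic cell genes had 2 gained regions of 142 (1.41%, near the 1.07% of all regions) and 18 lost (12.7%, against 20.6%). Of 65 tested for width, 7 were wider (10.8%, against 2.56%). With equal lists 12 of 104 were gained (11.5%, against 7.44%) and 5 lost (4.81%, against 8.56%). The wider ones included 3 at H2-Ab1 and 1 each at H2-Eb1 and Cd74, of the MHC class II pathway. Their centred log2 fold changes were 0.76 to 0.98 with all 4 libraries and 0.69 to 0.83 without WT replicate 2. The other wider regions of the list, at Siglech and Zbtb46, had 1.04 and 0.82, and 0.82 and 0.56 without that library. All of these wider calls depended on WT replicate 2 and were lost without it. At Cd74 the covered bases (561 and 631 in Flt3-ITD, 561 and 321 in WT) did not separate the groups. Tcf4, a regulator of plasmacytoid dendritic cells, had 11 of the 18 losses. Neutrophil granule genes had 1 gained region of 68 (1.47%, near the 1.07% of all regions) and 5 lost (7.35%, against 20.6%). The gained one lay inside Mpo, the myeloperoxidase gene (699 and 288 bases in Flt3-ITD, none in WT, 687 and 441 in DM, none in Npm1c). With equal lists 7 of 44 were gained (15.9%, against 7.44%) and 1 lost (2.27%, against 8.56%).

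Megakaryocyte and platelet genes had 7 gained regions of 139 (5.04%), and with equal lists 11 of 106 (10.4%, against 7.44% of all regions). With full lists they lay at Gp6, Ppbp, Thbs1 (thrombospondin of platelet granules), Tubb1 (the platelet tubulin), Cd9 (a platelet tetraspanin), Itga2b and Itgb3 (the fibrinogen receptor chains). Of the 7, 6 were called in none of the DM and Npm1c libraries, against 216 of the 907 gained regions (23.8%), and the Itgb3 region was called in both DM libraries. The difference between these shares was not tested. Thbs1 (chr2:118127523-118128184) had 437 and 444 bases covered in Flt3-ITD and none elsewhere. Tubb1 (chr2:174445346-174445767) had 307 and 416 bases in Flt3-ITD and none elsewhere. The region at the start site of Pf4, the platelet factor next to Ppbp, was wider in Flt3-ITD (1249 and 1408 bases in Flt3-ITD, 1449 and 1011 in WT, centred log2 fold change 0.63 ± 0.16 SE, limma adjusted p = 0.0423), though the uncentred values overlap and the call was lost without WT replicate 2 (0.48, limma adjusted p = 0.195), and had 619 and 577 bases in DM and 1229 and 1326 in Npm1c. Tbxa2r, the thromboxane receptor and no member of the list, was among the 8 wider regions of largest fold, at its start site, with 734 and 551 bases in Flt3-ITD and 307 and 311 in WT (1.54 ± 0.25 SE on the centred log2 scale, limma adjusted p = 0.00967), and 433 and 472 in DM and none in Npm1c. The list also lost 18 regions (12.9%, and 36 without WT replicate 2 or 29 without Flt3-ITD replicate 2), 6 at Fli1 and 4 at Vwf. Some genes with a gain were among them: Cd9 lost 3 regions and had 1 narrower, and Ppbp and Itgb3 lost 1 each. All 3 megakaryocyte markers, Pf4, Gp9 and Itga2b, had peaks in every library, with 5.55 and 5.96 kb covered in Flt3-ITD and 6.24 and 5.00 kb in WT.

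**Figure D3:**
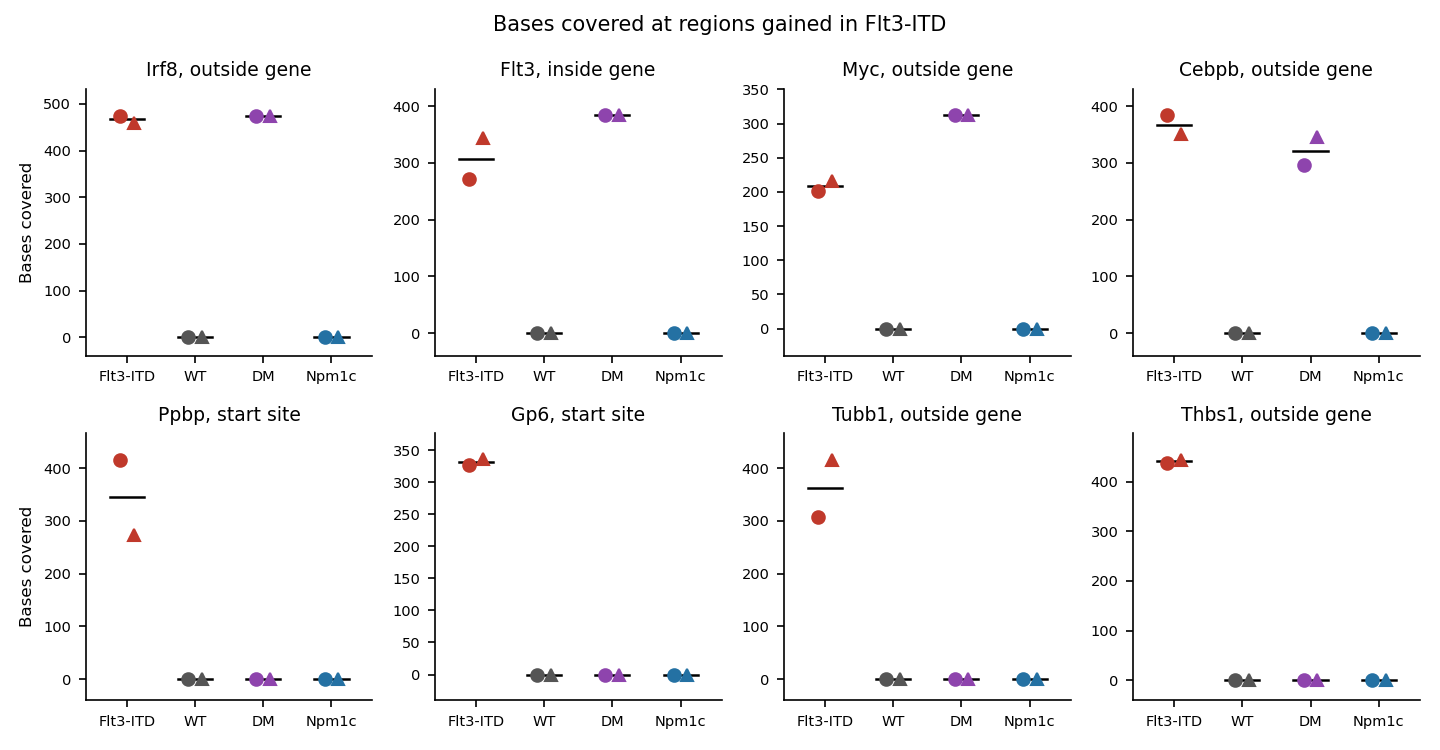
Bases covered in each library at 8 regions gained in Flt3-ITD (circle, replicate 1; triangle, replicate 2; bar, mean), counted within the region set by the Flt3-ITD and WT peaks. The upper row (Irf8, Flt3, Myc, Cebpb) is covered in DM and uncovered in Npm1c, and the lower row (Ppbp, Gp6, Tubb1, Thbs1) is uncovered in both.

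Stem cell genes had the opposite balance. Of 296 regions, 1 was gained (0.338%) and 77 lost (26.0%), and with equal lists 7 of 199 were gained (3.52%) and 26 lost (13.1%, against 8.56% of all regions). Without WT replicate 2, 132 were lost, and without WT replicate 1, 7 were gained. Of the 77, 63 were called in neither DM library (81.8%, against 81.9% of all lost regions). In both Npm1c libraries 62 were called (80.5%, against 65.9% of all lost regions). Meis1, a HOX cofactor of stem cells, lost 9 of 25 regions. Of other transcriptional regulators of stem cells, Prdm16 lost 7 of 17. Lmo2 lost 7 of 32 (21.9%), Erg 7 of 30 (23.3%) and Fli1 6 of 28 (21.4%), near the 20.6% of all regions. Prdm16 also had the gained region. Of 99 regions tested for width, 7 were narrower (7.07%), among them 2 each at Cd34 and Angpt1 and 1 each at Kit and Erg, and 2 were wider, at Hoxa9 and Fli1. The region at the start site of Kit, the stem cell factor receptor (chr5:75574335-75580319), had 1575 and 2115 bases covered in Flt3-ITD and 5900 and 4022 in WT (centred log2 fold change -0.92 ± 0.14 SE, limma adjusted p = 0.00783), and 1217 and 1342 in DM and 4058 and 4965 in Npm1c. The groups did not overlap. At the start site of Erg (chr16:95458552-95459638) no base was covered in Flt3-ITD and 1021 and 739 in WT, but 341 and 928 in DM and 796 and 1006 in Npm1c, so DM did not share this loss. The 12 HSPC markers had peaks at 11 genes in each of the 4 libraries, all but Ly6a, and 43.4 and 52.8 kb were covered in Flt3-ITD against 96.8 and 70.5 kb in WT.

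Erythroid genes had 2 gained regions of 231 (0.866%) and 53 lost (22.9%), and with equal lists 3 of 160 gained (1.88%) and 16 lost (10%). The shares lost lie near those of all regions, 20.6% with full and 8.56% with equal lists. Without WT replicate 2, 83 were lost, and without Flt3-ITD replicate 2, 84. Car2, a carbonic anhydrase of red cells, and Bcl11a, a globin repressor, lost 10 regions each, Sox6, its partner, 9, and Add2, a membrane skeleton subunit, 7 of 12. Of the 53, 50 were called in neither DM library (94.3%, against 81.9% of all lost regions). The lost region of largest mean width overlapped an end of Aqp1, the red cell water channel (chr6:55347543-55349613, midpoint 23 bases outside the gene), with none covered in Flt3-ITD, 1838 and 2071 bases in WT, none in DM and 1431 and 1550 in Npm1c. Zfpm1, the GATA cofactor FOG1, had 3 wider regions and 1 narrower one in Flt3-ITD, and a wider one (chr8:122342761-122344546) had 1569 and 1568 bases in Flt3-ITD, 1625 and 1280 in WT, none in DM and 900 and 686 in Npm1c. That call was lost without WT replicate 2 (limma adjusted p = 0.104) and without Flt3-ITD replicate 1 (limma adjusted p = 0.121). Another wider call at Zfpm1, at its start site, turned to -0.080 without centring. Erythroid markers had peaks at 3 of 4 genes in each library (Hbb-b1 had none), with 3.71 and 5.43 kb in Flt3-ITD and 6.58 and 6.54 kb in WT. Mast cell and basophil genes had no gained region of 77 and 16 lost (20.8%, against 20.6% of all regions), all 16 of them called in neither DM library.

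Among the remaining lists, B lymphoid genes had 3 of 106 regions gained (2.83%), 2 inside Pax5 and 1 at Ms4a1, each called in both DM and neither Npm1c library, and 16 lost (15.1%). T and NK genes had 2 of 82 gained, at Gata3 and Bcl11b, 19 lost (23.2%) and 4 narrower of 29, at Zap70, Klrb1c, Nkg7 and Eomes. Another 2 of the 29 were wider, both at Notch1, and neither exceeded WT without scaling. Stroma and endothelium genes had most losses by share, 25 of 84 (29.8%), with 6 each at Kdr and Col1a2. All 6 regions of Col1a2, a collagen chain, were called in both WT and both Npm1c libraries and in no Flt3-ITD or DM library. The interferon response list had no gained region of 46 and 12 lost (26.1%), and housekeeping genes 1 gained of 81 (1.23%) and 10 lost (12.3%). HOX genes and cofactors had 1 gained region of 91 and 19 lost (20.9%). With equal lists 15 of 70 B lymphoid regions (21.4%) and 12 of 59 T and NK regions (20.3%) were gained, against 7.44% of all regions, and the shares gained were 5.77% for stroma, 6.25% for interferon, 3.33% for HOX and 9.68% for housekeeping genes. The shares lost were then 11.5% for stroma, 6.25% for interferon, 5.00% for HOX, 6.78% for T and NK 7.14% for B lymphoid and 8.06% for housekeeping genes, against 8.56% of all regions. Among marker genes of other cell types, Ly6g, Cd3e, Cd3g, Cd8a and Fcer1a had no peak in any of the 4 libraries, and stroma and endothelium markers had peaks at 3 and 3 of 4 genes in Flt3-ITD and at 4 and 3 in WT (4.04 and 4.58 kb against 6.28 and 3.61 kb).

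**Figure D4:**
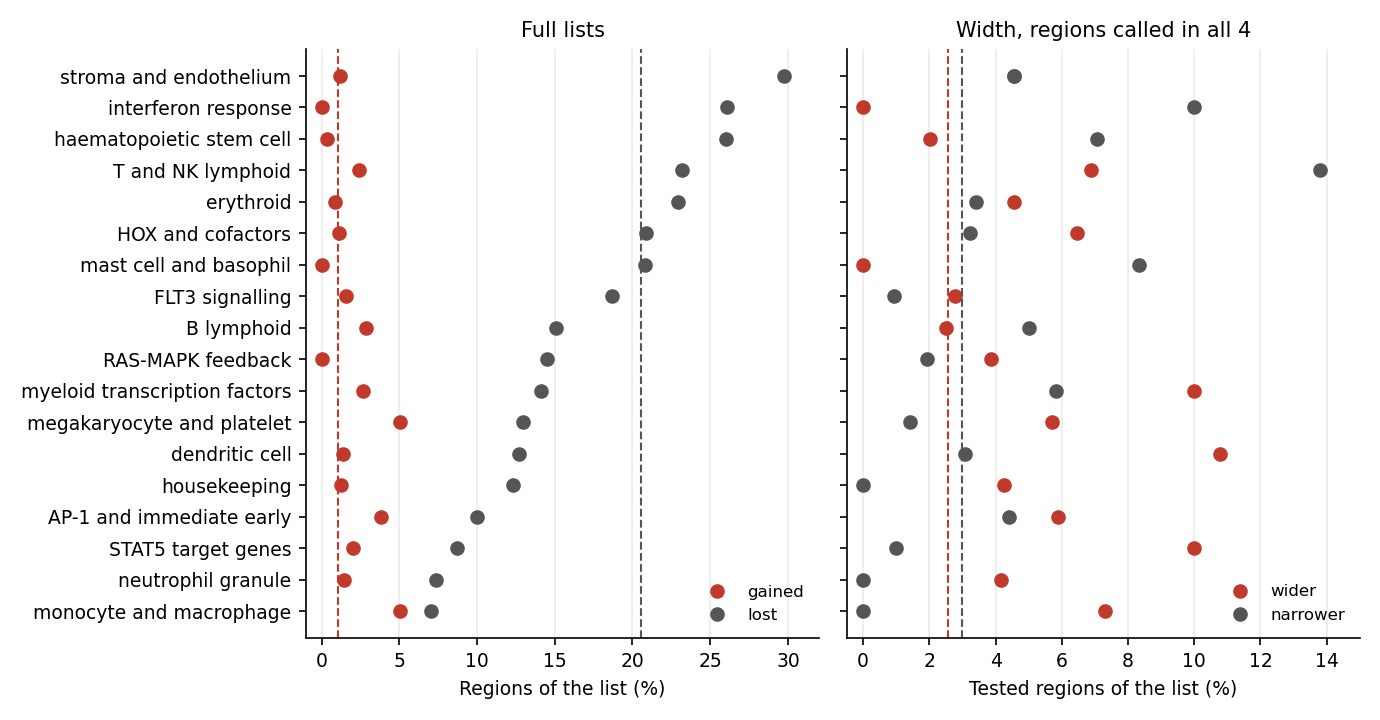
Left, percent of each list's regions that were gained (red) or lost (grey) in Flt3-ITD against WT with full lists. Right, percent of the list's regions called in all 4 libraries that were wider (red) or narrower (grey), where both points of the stroma list coincide. Dashed lines give the same over all regions (1.07%, 20.6%, 2.56% and 2.98%). Monocyte and megakaryocyte genes lie highest in gained share, and stroma, interferon and stem cell genes in lost share.

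Single genes with most gained regions were Mroh2a, with 14 of 26, and Grm4 (a glutamate receptor), with 5 of 18. Mroh2a, a HEAT-repeat gene, had 26 and 18 called regions in Flt3-ITD, 4 and 3 in WT, 4 and 2 in DM and 4 and 8 in Npm1c, and none of its 14 gained regions was called in both DM libraries. At Grm4 4 of the 5 were called in both DM libraries, as were all 4 each at Irf8, Lrpap1, Baiap2 and Srcin1 and 3 of 4 at Xxylt1. Lrrc32, which encodes the TGF-beta anchor GARP, had a gained region (chr7:98488261-98489411) with 1026 and 681 bases in Flt3-ITD, none in WT, 496 and 743 in DM and none in Npm1c. It also had a wider one, at chr7:98522421-98523546 with 1126 and 1073 bases in Flt3-ITD and 928 and 318 in WT (centred log2 fold change 1.51 ± 0.33 SE, limma adjusted p = 0.0287, and 0.85 without WT replicate 2). Most losses were at Pde4d (a cAMP phosphodiesterase, 25 of 78 regions), Sox5 (22 of 44), St6galnac3 (21 of 51), Arid1b and Foxp1 (19 each), Zeb2 and Etv6 (18 each) and Tgfbr3 (17 of 35). Long genes hold many regions, and 32.1% of those of Pde4d were lost. Of the lost regions at Etv6, an ETS repressor needed by stem cells, 17 of 18 were called in both Npm1c libraries. Jak1, a kinase of cytokine receptors, lost 8 of 30 regions, including chr4:101253123-101255458 with none covered in Flt3-ITD, 2336 and 1496 bases in WT, none in DM and 2162 and 2073 in Npm1c, and all 8 were uncalled in both DM libraries.

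The largest width changes differed in how alike the WT libraries were. Pld4, a lysosomal exonuclease of myeloid and dendritic cells (chr12:112761456-112762555), had 1028 and 1087 bases covered in Flt3-ITD and 591 and 401 in WT (centred log2 fold change 1.62 ± 0.19 SE, limma adjusted p = 0.00383), and 1098 and 1100 in DM and 401 and 386 in Npm1c. Rtn4rl1, a Nogo receptor homologue, had the largest wider fold, 1.89 ± 0.42 (limma adjusted p = 0.0305), with 1102 and 1300 bases in Flt3-ITD and 930 and 224 in WT, where WT replicate 2 alone was low, and 0.97 without it. Arl6ip5, a membrane protein of the endoplasmic reticulum, had the largest narrowing, at its start site (chr6:97221295-97223409), with 231 and 234 bases in Flt3-ITD and 2115 and 1650 in WT (-2.51 ± 0.19, limma adjusted p = 0.000688). There DM had 1037 and 1516 bases and Npm1c 1944 and 2071. A region of Etv6 (chr6:134042727-134045841) had 344 and 705 bases in Flt3-ITD and 3052 and 2801 in WT (-2.07 ± 0.22, limma adjusted p = 0.00299), and 635 and 721 in DM and 2988 and 3115 in Npm1c. Regions near Rps23 and Rps24, which encode ribosomal proteins, were narrowed alike, with centred log2 fold changes of -2.25 and -1.98.

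**Figure D5:**
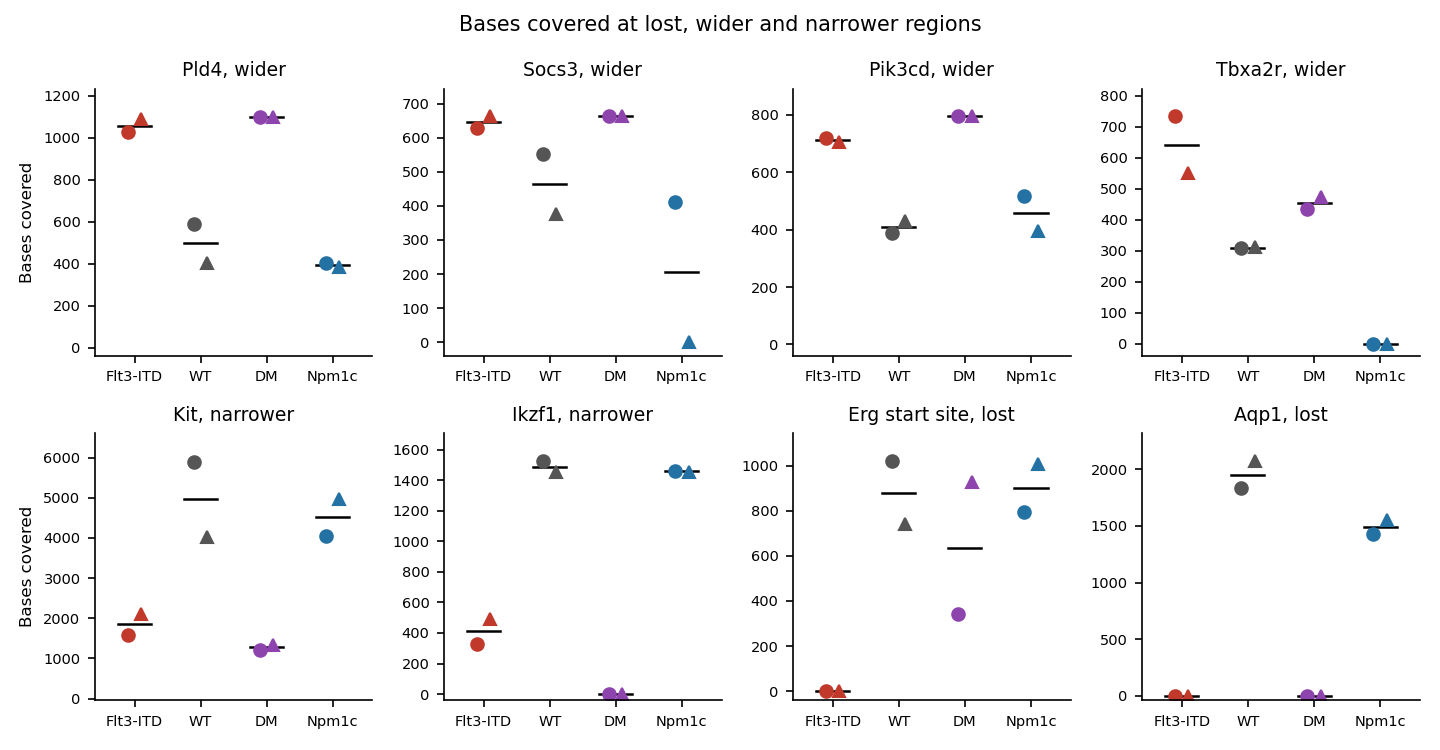
Bases covered in each library at 4 regions wider in Flt3-ITD (upper row), 2 narrower ones and 2 lost ones (lower row); circle, replicate 1; triangle, replicate 2; bar, mean. At Pld4, Socs3, Pik3cd and Tbxa2r both Flt3-ITD libraries lie above both WT libraries, and at Kit and Ikzf1 below them.

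MicroRNA hairpins lay within 2 kb of a gained region for 9 genes and of a lost region for 48, of 1005 RefSeq hairpins, 354 of which were that close to any region. Of these 354, the 9 were 2.54% and the 48 were 13.6%. Those are shares of hairpins, and neighbouring hairpins can share a region. They are thus not directly comparable with the shares of all regions gained (1.07%) and lost (20.6%). Mature sequences are shown for hairpins next to 2 gained and 2 lost regions, 5′ to 3′ with the seed (bases 2 to 8) in capitals.
mmu-miR-196b-5p: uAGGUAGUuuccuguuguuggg
mmu-miR-146b-5p: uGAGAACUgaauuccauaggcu
mmu-let-7i-5p: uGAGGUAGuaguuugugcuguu
mmu-miR-93-5p: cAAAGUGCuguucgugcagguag
mmu-miR-106b-5p: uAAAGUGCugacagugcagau
The gained region beside Mir196b (chr6:52230329-52230857), in the HOXA cluster between Hoxa9 and Hoxa10, lay 164 bases from the hairpin. It had 389 and 529 bases covered in Flt3-ITD and none in WT, and 529 in each of the DM and Npm1c libraries, so WT was the exception. The region 1607 bases from Mir146b (chr19:46340855-46341155), a microRNA known for feedback on NF-kappaB signalling, had 301 and 268 bases in Flt3-ITD and none in WT, and 301 and 301 in DM and none in Npm1c. A lost region lay 968 bases from Mirlet7i (chr10:122983992-122984672), with none covered in Flt3-ITD, 681 and 438 in WT, none in DM and 681 and 681 in Npm1c. Another lay 1519 bases from Mir106b and 1727 from Mir93, whose products share a seed, with none covered in Flt3-ITD, 346 and 359 in WT, none in DM and 299 and 274 in Npm1c. Peaks near a hairpin do not measure the microRNA.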

How the data were processed

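Accessible chromatin was measured by ATAC-seq in lineage-negative bone marrow cells, with 2 libraries each of Flt3-ITD, WT, DM and Npm1c mice, grouped by the sample titles. Reads were aligned with Bowtie2 and peaks called with MACS2 on mm10, per the submitters' processing notes. Versions, thresholds, duplicate removal and any Tn5 offset are not given in the sources used here. Each deposited list belongs to 1 library and gives a chromosome, a start and an end per peak, with no header, height, fold, score or q value, so the authors' unit is a position and the read depth of a library is unknown.

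Peaks on 20 chromosomes were merged at 1 shared base, and coordinates are counted from 1. A region went to the shortest gene body that held its midpoint, and where none did to the closest gene end up to 100 kb away, from a RefSeq table (GRCm38.p6, 21633 genes). Start sites, promoters and microRNAs came from RefSeq tables of that build. Bases covered in DM and Npm1c were counted within the regions of the 4 lists, so they cannot exceed the region width. Width was tested with limma 3.58.1 (R 4.3.3, trended variance, no block, Benjamini-Hochberg adjustment) on log2 bases covered. The fit was tested on simulated data. Library measures had exact two-sided permutation tests. Other steps used Python 3.11.15 with pandas 2.3.3 and numpy 2.4.6. A planned motif search in region centres needs the genome sequence and was run on promoters in its place.

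The 18 gene lists (292 genes, all found) are described by counts. The regions, lists and tests were chosen with earlier results of these data known. Named were Flt3, the 8 genes with most gained and with most lost regions, the 6 widest regions of each kind, the 8 wider and 8 narrower regions of largest fold, up to 4 genes per list and direction, list genes with a wider or narrower region, and start sites in gained or lost regions. Some genes that this rule names are not reported here. The sequences shown, Tbxa2r as a platelet gene, the microRNAs and the X chromosome were picked after their values were seen. Alternatives were lists of equal length, another merging, other overlap, width and distance limits, other scalings, a replicate block and each library left out.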

Additional observations from a re-analysis of the deposited data

Results flagged for a closer look

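At 8 of 180 named regions, both Flt3-ITD libraries moved one way against both WT libraries and both DM libraries moved the other way against both Npm1c libraries. The difference between these effects was not tested at any of them. At a wider Mroh2a region (chr1:88248164-88251216), the mean difference in bases covered was 1226.5 for Flt3-ITD minus WT and -1087.5 for DM minus Npm1c. At a gained Ly6c2 region (chr15:75085522-75085918) the values were 324.0 and -264.0, with peaks in both Flt3-ITD and both Npm1c libraries only. The lost start site of Kdr, the VEGF receptor (chr5:75978206-75978895), gave -582.0 and 366.0. Batf3, a dendritic cell factor, gave -1053.0 and 459.0 at its narrower start-site region, and Zap70, a T cell kinase, -623.5 and 33.0 at its narrower region. At Flt3, 3 regions did so, with -192.0 and 14.5 at chr5:147331582-147331888, -187.0 and 108.0 at chr5:147366165-147366838, and -27.5 and 161.5 at the start site. All values are bases covered without scaling, so the shorter Flt3-ITD lists enter them.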

How the results depend on the processing

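The direction of the covered length, the split of gained and lost regions between DM and Npm1c, and the excess of lost over gained regions were the same under every alternative run. Without single libraries, covered length differed by -12.8 to -23.2 Mb, gained regions by 67.8 to 69.7 and lost regions by -55.7 to -61.7 percentage points between DM and Npm1c. Gained counts ran between 945 and 4978 and lost counts between 18111 and 32345 with a library left out, and were 4313 and 4963 with lists of equal length. Regions merged over all 8 lists gave 881 and 16751, a call that asks for a peak over 0.5 of the region 939 and 21183, and lists without the narrowest 0.25 of their peaks 686 and 12864.

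Width calls depended on the scaling and on single libraries. Without centring 1 region was wider and 2497 were narrower, and with quantile normalization 432 were wider and 1292 narrower. Lists of equal length gave 563 wider regions. With a library left out, wider regions numbered 385 to 3098 and narrower ones 927 to 2797. Of the 105 named width regions, 38 kept their call without centring, 63 kept their direction only, and 4 changed sign, at Zfpm1 (-0.080), Socs1 (-0.032), Runx1 (-0.012) and Pim1 (-0.055). The cause was not tested. Of the 105, 52 lost their call without WT replicate 2 and 15 without WT replicate 1. Leaving out Flt3-ITD replicate 1 ended 32 calls and leaving out Flt3-ITD replicate 2 ended 5. Counts of gained and lost regions per list moved by over 1.5 times in 35 of 36 cases with equal lists, which changes the totals by construction, and in 15 of 36 when genes were assigned within 10 kb. They moved as much in 17 of 36 cases without WT replicate 1 and 18 without WT replicate 2, and in 9 and 14 when Flt3-ITD replicate 1 or 2 was left out. At the FLT3 signalling genes, for example, 23 regions were gained without WT replicate 1, against 4.

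The replicate numbers give 2 pairs, whose deviations from the group means correlated at 0.18, and nothing in the labels says that a number marks a shared animal or day, so they share only a number. With the replicate block 3890 regions were wider and 2608 narrower, all 105 named width regions kept their call, and the smallest paired p for covered length is 0.5.

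The lists hold no read counts, so no floor or interval can be set for an absent peak, and presence in 2 libraries against 2 supports no test of a single region. Genes came from the nearest gene body, which need not be the gene a region acts on.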

Other observations

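The X chromosome took part unevenly. It held 2 of the 907 gained regions (0.221%) and 525 of the 17395 lost ones (3.02%), against 2.05% of all regions and 1.65% of those called in all 4 libraries. None of the 864 wider and 23 of the 1005 narrower regions (2.29%) lay on it. With lists of equal length it held 27 of 4313 gained regions (0.626%) and 153 of 4963 lost ones (3.08%), against 1.78% of all regions. Peaks on X made up 1.51% and 1.58% of the lists in Flt3-ITD and 2.08% and 2.09% in WT, and 1.78% and 1.83% in DM and 2.43% and 2.5% in Npm1c. All 8 libraries had between 3 and 7 peaks on Y, and the sources used here do not give the sex of the mice. The pattern was noticed after the values were seen and its source was not tested.

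Region ends were set by the Flt3-ITD and WT peaks, which caps the bases covered in DM and Npm1c. The lengths that follow thus do not measure peak width in DM. Where called, gained regions had a median covered length of 263 and 267 bases in Flt3-ITD and 292 and 296 in DM, and 224 and 234 in the few called in Npm1c. The lost regions that DM did call had a median of 269 and 273 bases covered in DM, against 331 and 339 in Npm1c and 349 and 319 in WT.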
